A study of Mus musculus with 6 samples.

Results

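Small nucleolar RNAs (snoRNAs) are short, stable noncoding RNAs that guide the chemical modification of other RNAs. Box C/D snoRNAs, named Snord in the mouse, direct 2′-O-methylation, mostly of ribosomal RNA, and carry a C box near the 5′ end and a D box near the 3′ end. Box H/ACA snoRNAs, named Snora, direct the conversion of uridine to pseudouridine and end in an ACA trinucleotide, and the Cajal body RNAs, named Scarna, do both kinds of work on spliceosomal RNAs inside the Cajal body. In mammals most are cut out of the introns of a host gene, often a ribosomal protein gene or a noncoding host such as Gas5 or Snhg1.

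Members were selected on symbol and level: all rows whose symbol begins with Snord, Snora or Scarna followed by a digit, chosen by a deposited value above 0.01 in at least 1 library. There were 119 such rows among 24346 gene symbols, and 69 were kept: 31 of 74 Snord rows, 30 of 36 Snora rows and 8 of 9 Scarna rows. The study measured RNA of the hippocampus of C57BL/6 mice aged 12 months, in 3 wild-type animals (WT 1 to 3) and 3 heterozygous TonEBP+/- animals (TonEBP+/- 1 to 3). TonEBP is the osmosensitive transcription factor encoded by Nfat5; the heterozygotes and wild types were littermates of crosses between heterozygotes, from a line bred onto C57BL/6J for 5 to 6 generations, and no group received a treatment according to the labels. Each library was made from total RNA with a strand-specific kit. Replicates are samples that carry different numbers in the labels, so p-values measure the spread between these samples.

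The deposited value is on a log2 scale and was read as log2(FPKM + 1), where FPKM is fragments per kilobase of transcript, scaled by library depth; depth in reads was not used, because no header or label gives it. Nfat5, the targeted gene, was at 10.5, 8.39 and 9.72 FPKM in WT 1 to 3 and at 8.25, 9.31 and 8.42 FPKM in TonEBP+/- 1 to 3. Its log2 difference was -0.12 (SE 0.10, limma adjusted p = 1.00), and the groups overlapped. All 10 neuronal marker genes of the hippocampus were at 1 FPKM or more in all 6 libraries, with a summed level of 308 to 322 FPKM in wild types and 301 to 357 FPKM in heterozygotes. The summed level of 5 choroid plexus markers ranged from 279.6 to 2872 FPKM in wild types and from 95.01 to 3429 FPKM in heterozygotes, and the 8 thalamus and habenula markers summed to 110 and 106 FPKM in TonEBP+/- 2 and 3 against 178 to 201 FPKM elsewhere. The part of these tissues in the values below was not tested.

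Sequences are shown for the members on which the results turn. Snord57, Snord49b, Snord49a and Snord100 had FPKM in whole-number ratios to members of the same length in most pairs. Snord104 had the highest level, and Snord22 had the most estimated fragments among the members of 56 to 139 bases. Snora7a and Scarna3a are well-covered examples of the other classes. The sequences are the GENCODE M21 transcripts on GRCm38, the assembly named mm10 by the submitters. Snord57 lies at chr2:130278016-130278087 (+) within Nop56, Snord49b at chr11:62603079-62603150 (+) and Snord49a at chr11:62603450-62603521 (+) within introns of 2410006H16Rik, and Snord100 at chr10:23785750-23785823 (-) within Rps12. Snord104 lies at chr11:106500993-106501062 (+) with no annotated host on its strand, Snord22 at chr19:8725866-8725991 (+) within Snhg1, Snora7a at chr6:115807975-115808114 (-) within Rpl32, and Scarna3a at chr1:159340283-159340422 (+) in an intron of Cop1, which the files list as Rfwd2. Capitals mark, for box C/D members, the C-box core GATGA where it occurs within the first 25 bases and the last CTGA (D box) within the last 25 bases, and for Snora7a and Scarna3a the last ACA within the last 12 bases; the strand of the RNA alone was searched.
Snord57: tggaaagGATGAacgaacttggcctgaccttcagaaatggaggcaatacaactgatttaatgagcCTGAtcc
Snord49b: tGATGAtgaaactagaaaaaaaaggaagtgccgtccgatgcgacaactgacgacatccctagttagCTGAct
Snord49a: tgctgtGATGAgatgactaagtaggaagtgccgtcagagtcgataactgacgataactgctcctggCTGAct
Snord100: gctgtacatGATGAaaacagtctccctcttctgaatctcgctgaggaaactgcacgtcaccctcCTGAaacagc
Snord104: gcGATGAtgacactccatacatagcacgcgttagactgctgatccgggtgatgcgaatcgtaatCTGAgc
Snord22: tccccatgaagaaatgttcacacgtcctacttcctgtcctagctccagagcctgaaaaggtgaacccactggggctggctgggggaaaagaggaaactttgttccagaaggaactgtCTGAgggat
Snora7a: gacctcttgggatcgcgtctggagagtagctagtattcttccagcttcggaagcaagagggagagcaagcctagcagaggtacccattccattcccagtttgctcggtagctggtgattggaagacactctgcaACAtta
Scarna3a: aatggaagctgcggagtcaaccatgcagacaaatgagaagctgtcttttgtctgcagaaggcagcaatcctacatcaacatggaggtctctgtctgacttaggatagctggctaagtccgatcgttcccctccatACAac

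All but 1 of the 119 rows had a GENCODE sequence. The GATGA core was present in 53 of 73 Snord sequences (72.6%), in 1 of 36 Snora sequences and in 4 of 9 Scarna sequences. The CTGA box occurred in 72 of 73 Snord sequences (98.6%) against 5 of 36 Snora sequences (13.9%). The terminal ACA occurred in 34 of 36 Snora sequences (94.4%) and in 7 of 73 Snord sequences (9.59%). Snord22 holds the D box but no GATGA within its first 25 bases. The RefSeq lengths used below differ from the GENCODE ones for some members: Snord57 and Snord49b are 63 bases in RefSeq, Snord49a is 62 and Snord100 is 68.

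Box C/D members had the highest deposited values. Snord104 stood first, with deposited log2 values of 17.06, 16.99 and 16.80 in WT 1 to 3 and 16.92, 17.15 and 16.00 in TonEBP+/- 1 to 3. Snord47, hosted by Gas5, followed at 14.94 to 16.07 in wild types and 15.15 to 16.01 in heterozygotes. Snord22 had 14.55, 15.33 and 15.21 in wild types and 15.86, 15.17 and 14.60 in heterozygotes. The sister RNAs Snord49a and Snord49b, from introns of 1 host, ranged over all 6 libraries from 12.68 to 15.88 and from 12.84 to 15.71. The 5 highest Snord members all had mean FPKM above that of every Snora and Scarna member.

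Among box H/ACA members, Snora74a was highest, at 12.88 to 13.50 in wild types and 12.79 to 13.30 in heterozygotes on the deposited log2 scale. Snora7a followed at 12.00, 12.51 and 12.09 in wild types and 12.26, 12.20 and 12.22 in heterozygotes, then Snora44 (11.01 to 12.16 over the 6 libraries), Snora68 (10.66 to 11.81) and Snora78 (10.69 to 11.42). The Cajal body RNAs Scarna13, Scarna6 and Scarna3a were measured in every library and kept within narrow ranges, 11.36 to 11.94, 10.93 to 11.65 and 10.84 to 11.41. Scarna10 and Scarna2 had higher mean FPKM than these but were at about 0 in 1 and in 4 libraries. Their lengths are 71 and 61 bases in RefSeq but 325 and 414 bases in GENCODE.

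**Figure D1:**
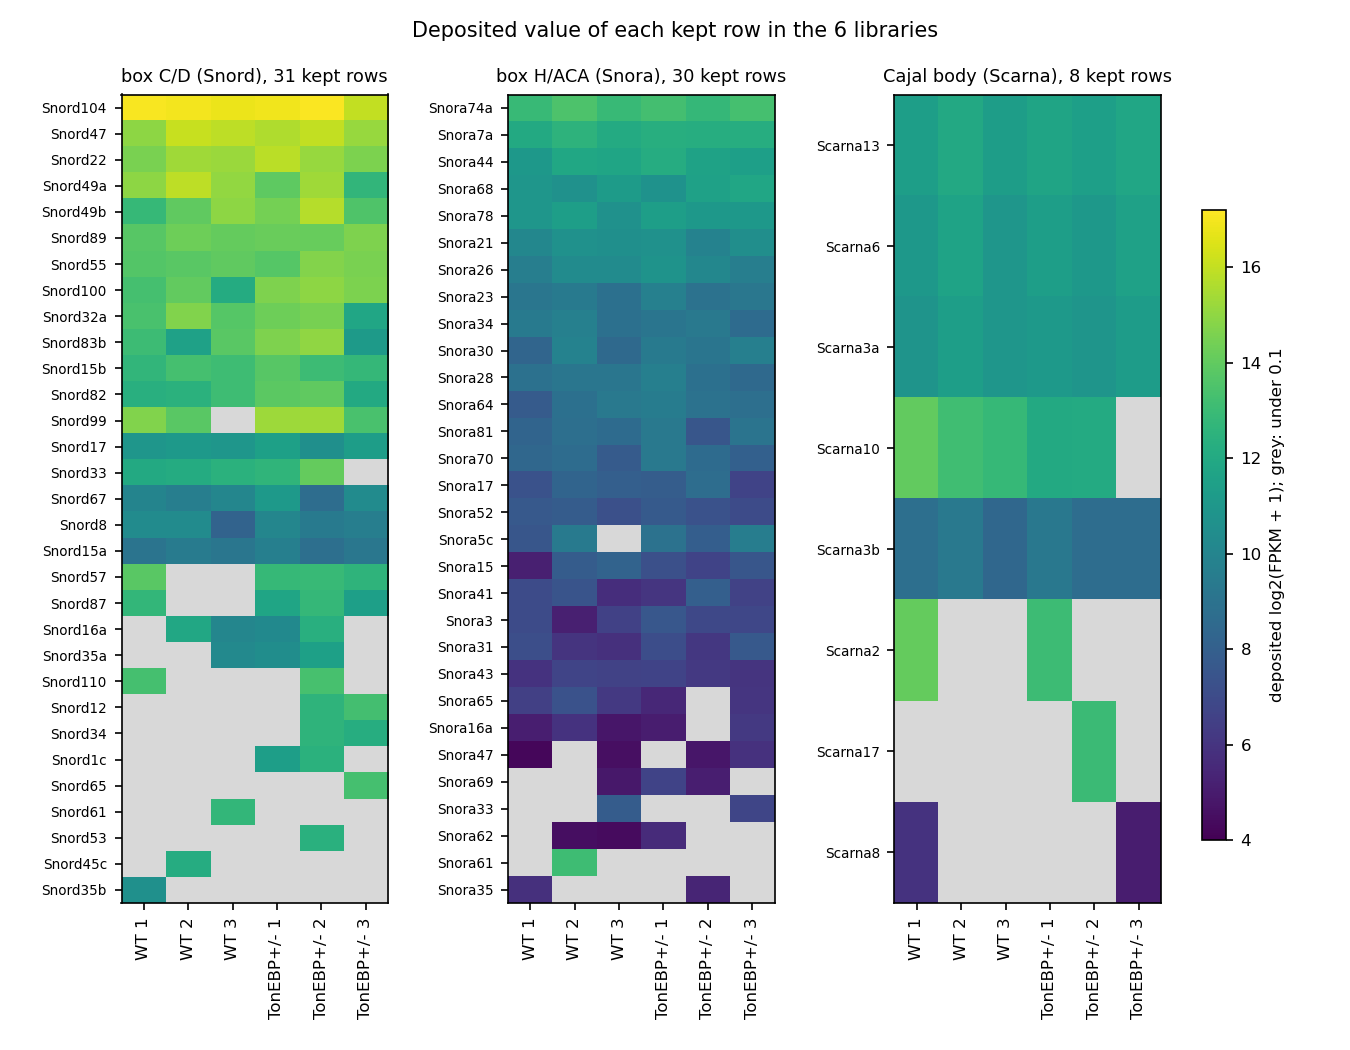
Deposited log2(FPKM + 1) of the 69 kept members (rows, by mean within each class) in the 6 libraries (columns), with values under 0.1 in grey. The 41 members without a grey cell were above 0.1 in all 6 libraries, and Snord104 is the brightest row, at 16.00 to 17.15.

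The number of members above 0.1 was 55, 51 and 52 in WT 1 to 3 and 55, 58 and 53 in TonEBP+/- 1 to 3, so the groups overlapped. The summed level of the 69 members was 432980, 507478 and 422160 FPKM in wild types and 527977, 666438 and 326565 FPKM in heterozygotes, with both the highest and the lowest sum in heterozygotes. Snord104 alone made up 25.6% to 31.7% of that sum in wild types and 20.0% to 23.5% in heterozygotes. This share depends on the sum, and the values of Snord104 itself overlapped between genotypes (log2 difference -0.26, SE 0.39). The median deposited log2 value of the members above 0.1 in all 6 libraries was 13.17 to 13.89 for the 16 Snord members in wild types, 8.41 to 9.18 for the 21 Snora members and 10.94 to 11.53 for the 4 Scarna members. The corresponding ranges in heterozygotes were 12.73 to 14.64, 8.82 to 9.40 and 10.96 to 11.42. The classes differ in length, so these medians do not rank them by number of fragments.

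The other 50 rows were listed at exactly 0 in all 6 libraries, and 43 of them were Snord rows. They include the brain-expressed, imprinted Snord116, Snord116l1, Snord116l2 and Snord64, which derive from the Snhg14 transcript, while Snhg14 itself was at 34.7 to 43.5 FPKM in wild types and 36.5 to 38.2 FPKM in heterozygotes. A host gene was found for 47 of the 50, and 46 of those hosts passed the expression filter, with a median of 34.1 FPKM against 62.7 FPKM for the hosts of kept members. For example, Snord14c and Snord14d were listed at 0 while their host Hspa8, a constitutive heat shock protein gene, averaged 1066 FPKM. The kept rows were far from the limit of 0.01: the highest value of Snora62 over the 6 libraries was 5.61 and that of Snora35 was 5.81, the lowest such values among kept rows.

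Low values of the short members came in steps. For members with the same RefSeq length in the same library, the ratio of their FPKM was a whole number, within 0.01, in 18 of 19 pairs of 56 to 94 bases. At 63 bases the ratio of Snord57 to Snord49b was 2 in WT 1, and that of Snord49b to Snord57 was 3, 7 and 2 in TonEBP+/- 1 to 3. At 68 bases Snord100 had 2 and 3 times the FPKM of Snord82 in WT 1 and WT 2, and Snord82 had 2 times that of Snord100 in WT 3. Only the pair of Snord100 and Snord82 in TonEBP+/- 1, at 1.67, was not whole. Of 47 pairs of 98 to 139 bases, 10 had a whole ratio, and of the 11 among them whose lower member was at 1 step, 5 did. Ratios between members at more than 1 step need not be whole. The limit of 0.01 is also stricter for large ratios, such as 1736.03 for Snord22 to Snora47 in WT 3. These pairs therefore do not measure how exact the longer members are, and the numbers given for them are to be read as approximate.

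The smallest step was read as 1 sequenced fragment, and its size was fitted against length in each library. The step could stand for another constant number of fragments, in which case every fragment number and interval below would scale with it; Snord45c in WT 2 was at 0.51 of a step. A single fragment was worth 4837 to 6383 FPKM at 66 bases and 25.6 to 38.3 FPKM at 120 bases. With this size, 149 of 154 member values under 6.5 fragments (96.8%) lay within 0.1 of a whole number, although the size was chosen to make them so. The same-length ratios do not depend on the fit. The numbers are estimates and no counts of the authors, and were not made for the 9 members of 145 to 275 bases. Across the 41 members above 0.1 in all libraries, length and mean log2 value had a Spearman correlation of -0.41 and a Pearson correlation of -0.29, given as a description since all members share the 6 libraries.

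**Figure D2:**
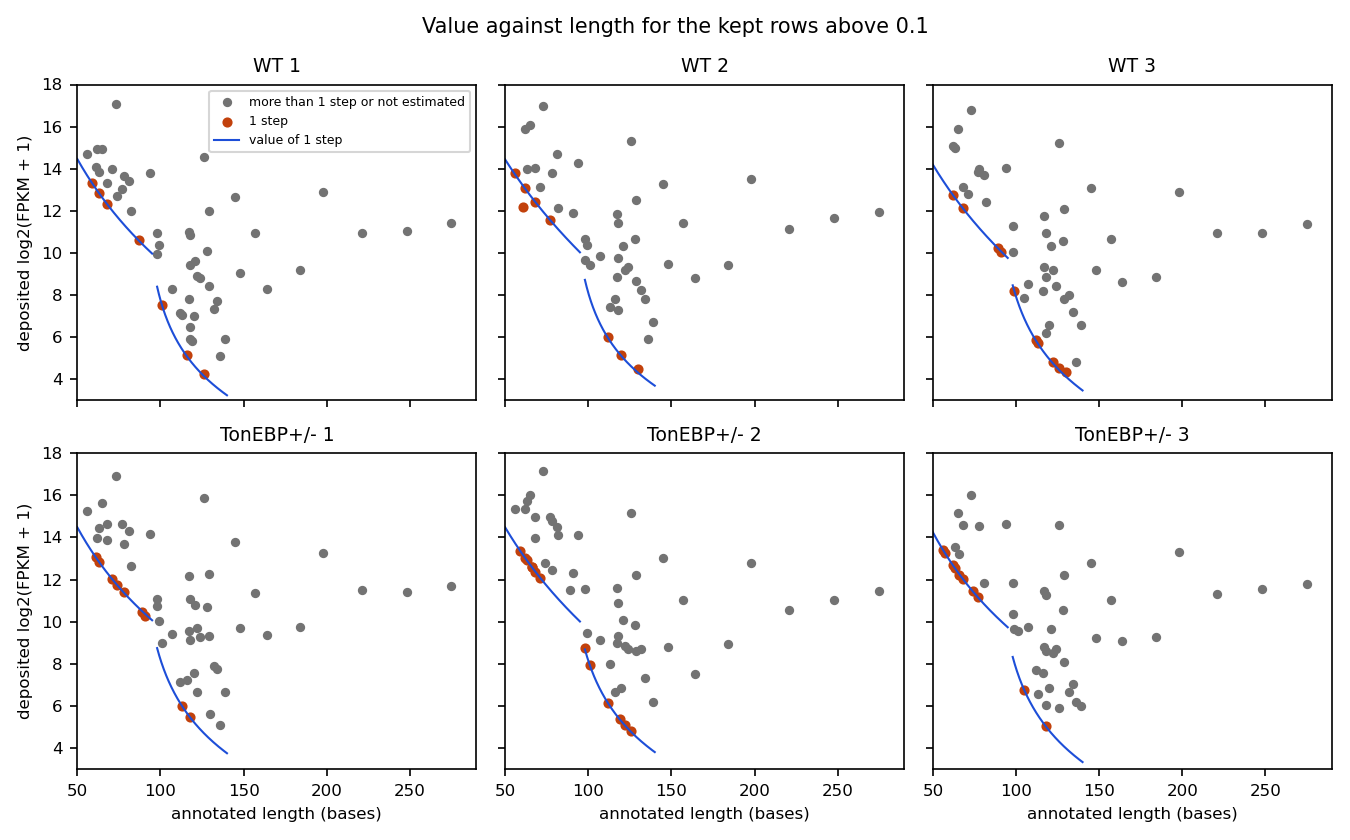
Deposited log2(FPKM + 1) against annotated length in bases, 1 panel per library, for kept members above 0.1; the blue lines give the fitted value of 1 fragment and orange points are members at 1 fragment. At 66 bases the line lies near 12 to 13 and at 120 bases near 5, so the same number of fragments gives very different values at different lengths.

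On this scale, most of the high values of short members rest on few fragments. Of 270 values above 0.1 in members of 56 to 139 bases, 57 were 1 fragment and 146 (54.1%) were 5 or fewer. The share at 5 or fewer was 70.1% for members of 56 to 94 bases and 43.6% for members of 98 to 139 bases. Snord22 carried about 1337, 1694 and 1756 fragments in wild types and 2261, 1370 and 1268 in heterozygotes. This was 61.2% to 74.6% of the fragments estimated in a library for members of 56 to 139 bases, the only ones with an estimate. Snord104 had the highest level but 38.1, 32.9 and 35.8 fragments in wild types and 34.2, 38.0 and 22.1 in heterozygotes. Its share was 1.06% to 1.87% of the same fragments. Snora7a had 206 to 286 fragments and Scarna3a had 43.5 to 76.7. By class, fragments per library summed to 1363 to 2374 for Snord members, mostly Snord22. The sums were 456 to 630 for Snora and 59.4 to 96.6 for Scarna members. They leave out the 9 members of 145 to 275 bases, among them Snora74a, Snord15b and Scarna13, for which no estimate was made. The sums therefore do not rank the classes. Of the members of 56 to 139 bases, 12 had about 10 or more fragments in every library.

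A value of 1 fragment has an exact Poisson 95% interval of 0.0253 to 5.57 fragments, and a value of 0 allows up to 3.69; these intervals cover counting error only. A deposited value near 0 in one library and near 13 in another can therefore be a difference of 1 fragment.

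Values that dropped to about 0 were frequent. Near-0 values differed between libraries: they were exactly 0 in WT 2 and TonEBP+/- 2, up to 0.0050 in WT 1, 0.0019 in TonEBP+/- 1, 0.0181 in WT 3 and 0.0251 in TonEBP+/- 3. No member value lay between 0.0251 and 4.25, so 0.1 separates the 90 near-0 values among 414 from the rest, whereas 0.01 counts only 59 of them. By library, 14, 18 and 17 members were near 0 in WT 1 to 3 and 14, 11 and 16 in TonEBP+/- 1 to 3.

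At 0.1, 6 members were near 0 in exactly 1 library. Snora16a and Snora65 dropped out in TonEBP+/- 2, Scarna10 and Snord33 in TonEBP+/- 3, and Snora5c and Snord99 in WT 3. In the other 5 libraries Snora16a had 2 to 6 fragments, Snora65 had 1 to 4, Scarna10 had 1 to 4, Snord33 had 2 to 8, Snora5c had 1 to 4 and Snord99 had 1 to 3. At 0.01 the number was 5, of which Snora16a and Snora65 were also in the set at 0.1. A further 7 members were above 0.1 in a single library: Scarna17 and Snord53 in TonEBP+/- 2, Snord65 in TonEBP+/- 3, Snord35b in WT 1, Snora61 and Snord45c in WT 2, and Snord61 in WT 3. Each of these was at about 1 fragment except Snord45c, at 0.51.

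All 9 members of 145 to 275 bases, 22 of 31 of 98 to 139 bases and 10 of 29 of 56 to 94 bases were above 0.1 in every library. Rows for microRNA genes, the other large class of short genes in the files, were above 0.1 in every library in 9 of 37 rows above it anywhere (24.3%), against 41 of 69 members (59.4%) and 15266 of 19027 other genes (80.2%).

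**Figure D3:**
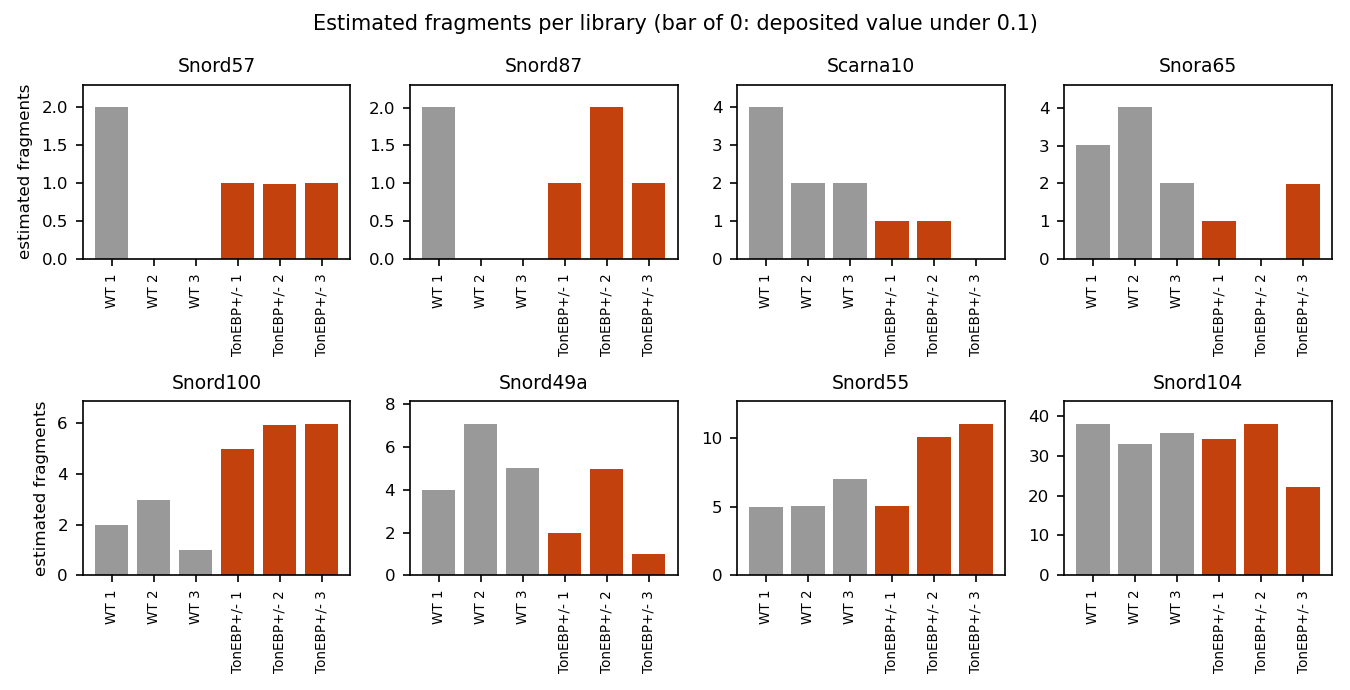
Estimated fragments (vertical axis, starting at 0, with its own scale per panel) of 8 members in the 3 wild-type libraries (grey) and 3 TonEBP+/- libraries (orange). Snord57, Snord87, Scarna10 and Snora65 have at most 4 fragments in any library, and Snord104 has 22.1 to 38.1.

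The comparison of heterozygotes with wild types asks whether reduced TonEBP gene dose goes with other levels of these RNAs. Of the 69 members, 54 reached 1 FPKM in at least 3 libraries and were tested among 13122 genes with limma. At an adjusted p under 0.05, 0 of the 54 members and 0 of all genes (0%) were called, with a smallest adjusted p of 0.383 over all genes. At an unadjusted p under 0.05 there were 1 member and 484 genes (3.69%). The median log2 difference was 0.13 for the 54 members and -5e-06 for all genes, and 39 members had higher and 15 had lower means in heterozygotes, against 6561 of 13122 genes higher (50%). Without TonEBP+/- 1 the median of the members was -0.03, and without WT 1 it was 0.01.

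Genotypes did not overlap for 3 of the 54 members, against 8.52% of all genes tested. They were Snord100, Snora65 and Scarna10.

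Snord100 is a box C/D RNA located within Rps12, a ribosomal protein gene. It had deposited log2 values of 13.31, 14.02 and 12.12 in wild types and 14.64, 14.97 and 14.61 in heterozygotes, and all 3 heterozygotes lay above all wild types. These values correspond to 2, 3 and 1 fragments against 5, 6 and 6. The mean was 13.15 ± 0.96 in wild types and 14.74 ± 0.20 in heterozygotes (SD, n = 3 each). This is a log2 difference of 1.59 (SE 0.43, limma adjusted p = 1.00). The exact permutation p of 0.1 (two-sided) is the smallest that 3 against 3 can give. Its host Rps12 ranged from 611 to 799.9 FPKM in wild types and from 619 to 758 FPKM in heterozygotes, with a log2 difference of 0.02 (SE 0.12).

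Snord57, hosted by Nop56 (itself a core protein of box C/D particles), showed the largest estimated difference among tested members. Its deposited log2 values were 13.84, 0.00 and 0.02 in wild types and 12.84, 12.91 and 12.56 in heterozygotes. The highest value and the lowest ones were all in wild types, so the groups overlapped. In fragments these are 2, 0 and 0 against 1, 1 and 1. The log2 difference was 8.15 (SE 4.54, limma adjusted p = 1.00). Without WT 1 it was 12.76 with a limma adjusted p of 3.78e-11, the only gene called in that fit (0.00762% of 13122), and it then compared 1 fragment in each heterozygote with 0 in both remaining wild types. Nop56 had a log2 difference of -0.02 (SE 0.07), and Snord110, another product of Nop56, was at 1 fragment in WT 1 and TonEBP+/- 2 and near 0 elsewhere.

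Snord87, from the noncoding host Snhg6, showed the same pattern of libraries, with 2, 0 and 0 fragments in wild types and 1, 2 and 1 in heterozygotes. Its log2 difference was 7.75 (SE 4.19), and that of Snhg6 was -0.09 (SE 0.16). Snord55 had values of 13.68, 13.81 and 13.98 in wild types and 13.71, 14.77 and 14.54 in heterozygotes, or 5, 5 and 7 fragments against 5, 10 and 11. The groups overlapped through TonEBP+/- 1, and the log2 difference was 0.52 (SE 0.29, limma adjusted p = 1.00). Snora68 and Snora3 had log2 differences of 0.41 (SE 0.28) and 0.84 (SE 0.60). These 6 members had the smallest p among those with higher means in heterozygotes, and none passed.

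Among members with lower means in heterozygotes, Snord49a had values of 14.95, 15.88 and 15.08 in wild types and 13.95, 15.34 and 12.68 in heterozygotes, or 4, 7 and 5 fragments against 2, 5 and 1. TonEBP+/- 2 lay within the wild-type range. The log2 difference was -1.32 (SE 0.65, limma adjusted p = 1.00). Its sister Snord49b had 1, 2 and 5 fragments against 3, 7 and 2 and a log2 difference of 0.64 (SE 0.71). Their shared host 2410006H16Rik was at -0.04 (SE 0.11).

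Scarna10 had values of 14.01, 13.13 and 12.82 in wild types and 12.02, 12.09 and 0.03 in heterozygotes, or 4, 2 and 2 fragments against 1, 1 and 0. All heterozygotes lay below all wild types, and the log2 difference was -5.28 (SE 3.96, limma adjusted p = 1.00), or -1.27 without TonEBP+/- 3. Its host Ncapd2, a condensin subunit gene, was at 2.42, 2.29 and 2.52 FPKM in wild types and 2.65, 2.76 and 2.86 FPKM in heterozygotes, also without overlap but in the other direction (log2 difference 0.14, SE 0.10, limma adjusted p = 1.00). Snora65, within Rpl12, had 6.49, 7.31 and 6.18 in wild types and 5.48, 0.00 and 6.03 in heterozygotes, or 3, 4 and 2 fragments against 1, 0 and 2. Its log2 difference was -2.82 (SE 1.92), or -0.90 without TonEBP+/- 2.

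Snora16a, also near 0 in TonEBP+/- 2, had a log2 difference of -1.52 (SE 1.90), which was 0.35 without that library. Snora34 and Snora52, from Kansl2 and Rplp2, were covered by 12.0 to 23.3 and by 8.97 to 17.0 fragments and had log2 differences of -0.32 (SE 0.28) and -0.20 (SE 0.23). The remaining members that dropped out of 1 library had log2 differences of -3.26 (SE 4.40) for Snord33, 3.18 (SE 2.87) for Snora5c and 5.17 (SE 4.72) for Snord99.

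**Figure D4:**
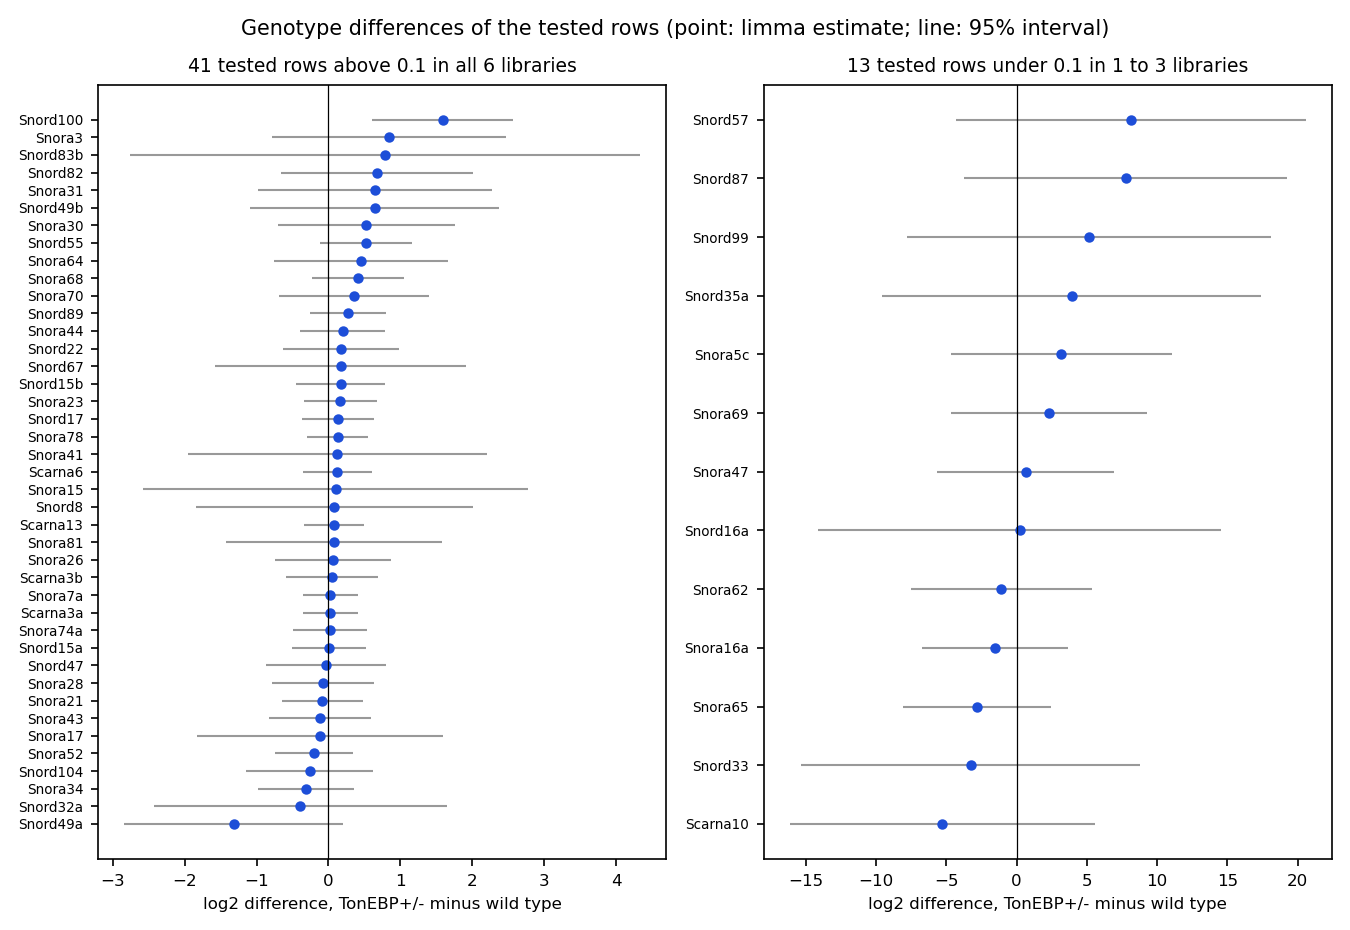
Log2 difference, TonEBP+/- minus wild type, of the 54 tested members (point: limma estimate; line: 95% interval), with 41 members above 0.1 in all libraries on the left and 13 members under 0.1 in 1 to 3 libraries on the right, on a wider axis. The intervals are not adjusted for the number of genes tested. That of Snord100 (0.61 to 2.57) is the only one of the 54 that does not include 0. Of all genes tested, 3.69% had an unadjusted limma p under 0.05.

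Standard errors differed widely between members. For the 41 members above 0.1 in all libraries, the standard errors of the log2 difference were 0.17 to 1.33 with a median of 0.33, against a median of 0.10 for all genes; for the 13 members near 0 in 1 to 3 libraries they were 1.90 to 5.22. The 12 members with about 10 or more fragments in each library had log2 differences of -0.32 to 0.35, with standard errors of 0.17 to 0.40. Among them Snora7a had 0.03 (SE 0.17, 95% interval -0.35 to 0.40), Scarna3a had 0.03 (SE 0.17, interval -0.36 to 0.41), Snord22 had 0.18 (SE 0.36, interval -0.63 to 0.99) and Snord104 had -0.26 (SE 0.39, interval -1.14 to 0.62). The 9 members of 145 to 275 bases had differences of 0.01 to 0.17, with standard errors of 0.18 to 0.56. A change smaller than these intervals was not detectable in 3 against 3 libraries.

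A host gene on the same strand was found in the files for 63 of the 69 kept members, in 52 distinct genes. Of the 63, 46 had a host that GENCODE types as protein-coding, and 22 of the 63 had a ribosomal protein gene as host. Over the 81 distinct hosts of all rows that were tested, 0 were called, 49 had higher and 32 had lower means in heterozygotes, and 4 did not overlap between genotypes, against 8.52% of all genes tested. Their median log2 difference was 0.02 with a median standard error of 0.10. For the 37 tested members above 0.1 in all libraries with a tested host, the log2 differences of member and host had the same sign in 24, with a Pearson correlation of 0.08 and a Spearman correlation of 0.21, given as a description because several members share a host and all share the libraries. Whether counting used the strand or assigned each fragment once is not stated, and 30 of the 63 overlap an exon of a host transcript, so fragments of a member and its host may not be fully separated.

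The genes that build and process these RNAs were compared as lists. Of the box C/D core proteins, 4 were tested, 1 higher and 3 lower in heterozygotes, and 0 were called; Nop58 had 22.3 ± 1.03 FPKM in wild types and 24.2 ± 1.35 in heterozygotes (SD, n = 3), a log2 difference of 0.12 (SE 0.07). The box H/ACA core proteins had 3 higher and 1 lower, with 0 called; Dkc1, the pseudouridine synthase, had a log2 difference of 0.09 (SE 0.08) and Nhp2 had 0.06 (SE 0.07). The 10 assembly factors were split 5 and 5 with 0 called, and Rpap3 and Shq1 had -0.10 (SE 0.08) and 0.14 (SE 0.14).

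Of 10 Cajal body genes, 6 were higher and 4 lower with 0 called. Gemin2, a partner of the survival motor neuron protein in building spliceosomal particles, had 4.34 ± 0.92 FPKM in wild types and 5.54 ± 0.49 in heterozygotes (SD, n = 3), a log2 difference of 0.30 (SE 0.13, limma adjusted p = 1.00), and Ddx20 had -0.15 (SE 0.09) without overlap of the genotypes. Of 9 genes for release and trimming, 5 were higher and 4 lower with 0 called; the 5′ exonucleases Xrn1 and Xrn2 had -0.12 (SE 0.08) and -0.13 (SE 0.09), each without overlap. The 16 noncoding host genes found had 9 higher and 7 lower with 0 called, among them Snhg20 at 0.14 (SE 0.09) and Snhg5 at -0.19 (SE 0.13). The 17 genes of the U3 processome, which uses the box C/D RNA U3 to cut the ribosomal precursor, had 12 higher and 5 lower with 0 called, among them Mphosph10 at 0.18 (SE 0.08) and Wdr3 at 0.16 (SE 0.09). Genotypes did not overlap for 2 of the 10 Cajal body genes (Ddx20 and Smn1) and 2 of the 9 release and trimming genes. The number was 1 of 17 for the U3 processome (Wdr3) and 0 for the core protein, assembly and noncoding host lists. Of all genes tested, 8.52% did not overlap. The list medians lay between -0.01 and 0.05, against about 0 for all genes.

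Of the other structured RNAs, 9 were tested, 6 higher and 3 lower with 0 called. Rn45s, a row for the ribosomal RNA precursor, had deposited log2 values of 13.00, 13.63 and 13.92 in wild types and 0.00, 0.00 and 11.32 in heterozygotes. It was the only 1 of the 9 whose genotypes did not overlap, against 8.52% of all genes tested. Its log2 difference was -9.74 (SE 3.72, limma adjusted p = 1.00), and it was -13.51 without TonEBP+/- 3 with a limma adjusted p of 2.32e-05. Rn45s was the only 1 of 13122 genes called in that fit. The remaining heterozygotes were at 0.0019 and 0, so almost no spread was left among them. The ribosomal precursor is encoded in many near-identical copies, so the value of this row is uncertain. Rprl3, a row related to the RNA component of RNase P, had 0.97 (SE 0.65).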

How the data were processed

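Sequencing libraries were prepared from hippocampal total RNA with a directional NEBNext Ultra II kit, per the labels. The submitters' processing notes name TopHat and the mm10 genome; neither version nor the program that computed abundance is recorded there. The authors deposited 1 table per library with a log2 value for each of 24346 symbols. The unit was read from the values: 2 to the power of the deposited log2 value, minus 1, was taken as FPKM.

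The 13122 genes that reached 1 FPKM in 3 or more libraries were fitted on the deposited log2 scale with limma 3.58.1 in R 4.3.3 (genotype as the only term, trend and robust options). Benjamini-Hochberg adjustment covered all genes tested, with a threshold of 0.05. Differences between values near or under 1 FPKM are understated on this scale. For short members the reverse can hold. At 66 bases 1 fragment was a log2 FPKM of 12.2 to 12.6, so 1 fragment against 0 gives a large log2 difference. An exact permutation test (two-sided) was applied to single values. No count test was used, since the unit is not counts. Fragment numbers were estimated from the steps of values of rows of 50 to 95 and 98 to 139 bases, with a tolerance of 0.1 fragments, and the step and limma procedures were tested on simulated data. Lengths are from RefSeq, and sequences and hosts from GENCODE M21.

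The members, lists and tests were chosen with earlier results of these data known. Named were, per class, the 5 highest mean levels, up to 6 smallest p per direction, members near 0 in 1 library, Snord57, the imprinted brain clusters, the rows nearest the limit of 0.01, their hosts, and the 2 genes with the smallest p in each list. A few other genes, such as Snord110 and Hspa8, were chosen after their values were seen. Some hosts under this rule are not reported here. Alternatives were other scalings, filters, pseudocounts, thresholds, a block for the replicate number, each library left out and, chosen after seeing the data, a test of only the rows above 0.1 in all libraries.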

Additional observations from a re-analysis of the deposited data

How the results depend on the processing

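Calls of adjusted p in limma stayed at 0 for members and for all genes under quantile normalization, median scaling, no filter, a mean of 5 FPKM, a pseudocount of 0.1, no robust option, a threshold of 0.1 and the test of only rows above 0.1 in all libraries. With a library left out, calls were 0 to 8 for all genes and 0 to 1 for members; the 8 came without TonEBP+/- 1 and held no member, and Snord57, called without WT 1, was the only member (12.76). Deviations of same-numbered samples from their genotype means had correlations over genes of -0.21, -0.25 and -0.16. With 3 samples per genotype these deviations sum to 0, so the correlations cannot decide whether the numbers pair samples. With a replicate block the calls were 0 for all genes and 0 for members, and the median member difference was 0.13. That median ranged from -0.03 to 0.28 with a library left out, and was 0.07 with quantile normalization. Members near 0 in exactly 1 library numbered 5, 15 at a limit of 0.001, 6 at 0.1, and 5 to 9 with a library left out. Members without overlap of genotypes numbered 3 of 54 (8.52% of all genes), 1 of 41 among rows above 0.1 in all libraries (8.52% of 13082 such rows), and 7 to 9 of 54 with a library left out, where the share of all genes was 15.5% to 21.7%. The number kept stayed at 69 at 0.001 and 0.1. Of 462 alternative values of 34 single genes, 450 kept direction and side of the threshold, 10 changed sign and 2 came to pass it. With quantile normalization Snord22 was at -0.11. With a library left out the log2 differences ranged from -0.15 to 0.48 for Snord22, -2.74 to 0.35 for Snora16a, -0.49 to 0.084 for Snord104, -0.074 to 0.18 for Snora7a, -5.85 to 1.19 for Snord33 and -0.067 to 0.029 for Nop56. The cause was not tested. Of the 270 values above 0.1 in members of 56 to 139 bases, 54.1% were estimated at 5 fragments or fewer. The counting interval of such values is wide, and fragments are not known to be independent molecules. Snord22 and Snora7a also changed sign, at 1268 to 2261 and at 206 to 286 fragments.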
